A study of Arabidopsis thaliana with 12 samples.

Results

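UDP-glycosyltransferases and beta-glucosidases of Arabidopsis thaliana are the enzymes that put sugars on small molecules and take them off again, and their transcripts were followed here after a cytokinin treatment in plants with and without overexpression of ARR22. The members were all genes with a probe set of their own whose symbol begins with UGT and a digit, or with BGLU, together with the beta-glucosidase PYK10. The cytokinin N-glucosyltransferases UGT76C1 and UGT76C2 were left out. This gave 66 genes, 45 of them UGT and 21 BGLU, of the 13350 genes with a probe set of their own. Of these, 37 genes (26 UGT and 11 BGLU) were bright enough to be tested, and 19 UGT and 10 BGLU genes fell below the filter on dim probe sets. No member had more than 1 probe set of its own, and 4 further probe sets that carry a UGT or BGLU name together with a second gene were kept apart.

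Family 1 UDP-glycosyltransferases transfer a sugar from a UDP-sugar to hormones, flavonoids, phenylpropanoids and other acceptors, which usually makes them more soluble and often inactive. Beta-glucosidases of glycoside hydrolase family 1 cleave such conjugates, and some act as defence enzymes that release toxic products when tissue is damaged. A member of either family can act on several acceptors in vitro, so the roles given below are those each enzyme is best known for.

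The 12 arrays formed 4 groups of 3, all from RNA of complete 21-day-old plants in the vegetative stage: ARR22-ox plants given 20 µM t-zeatin for 3 h, ARR22-ox plants without treatment, Col-0 plants given the same t-zeatin, and Col-0 plants without treatment. Col-0 is the wild-type accession, t-zeatin (trans-zeatin) is a natural cytokinin, and ARR22-ox plants overexpress ARR22, a type-C response regulator. The labels give neither the promoter of the transgene nor the number of lines, and the untreated plants received no mock treatment. A change after t-zeatin therefore cannot be told apart from one of handling or of the 3 h that passed. A suffix of unstated meaning marks the titles of all Col-0 t-zeatin samples and of no other group, so whatever it stands for cannot be told apart from that group. Nothing in the labels ties the 3 arrays of a group to separate plants, so the p-values cover only array-to-array spread, which may be technical. In whole plants, fewer cells of a type and less RNA per cell cannot be told apart.

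Signals of RR22, the probe set for ARR22, lay between 2752 and 3661 on the 6 ARR22-ox arrays and between 0.397 and 1.92 on the 6 Col-0 arrays, so every array matched its genotype label. The third ARR22-ox untreated array stood apart: its correlation with another array of its group was as low as 0.926, while the lowest within the other 3 groups was 0.988. On that array the 3'/5' ratio of the GAPDH control was 1.82, against at most 1.09 elsewhere. Its part in the results was not tested as a cause, and the counts without it are given with each comparison. Genes were found by symbol in the platform annotation, which pairs 8730 of the 22746 probe sets that are not controls with no gene, so a listed gene that was not found may still be on the array. The organ markers could not be weighed for that reason, because 1 of 11 leaf genes, and none of the 11 root, 6 flower and 7 seed genes listed, was found. That leaf gene, LHCB4.2 of the light-harvesting antenna, averaged 1050.0 ± 47.9 in ARR22-ox t-zeatin, 1292 ± 200.2 in ARR22-ox untreated, 1751 ± 88.6 in Col-0 t-zeatin and 2406 ± 61.6 in Col-0 untreated arrays (SD, n = 3 each). It was lower in ARR22-ox than in Col-0 in both states and lower after t-zeatin in both genotypes.

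**Figure D1:**
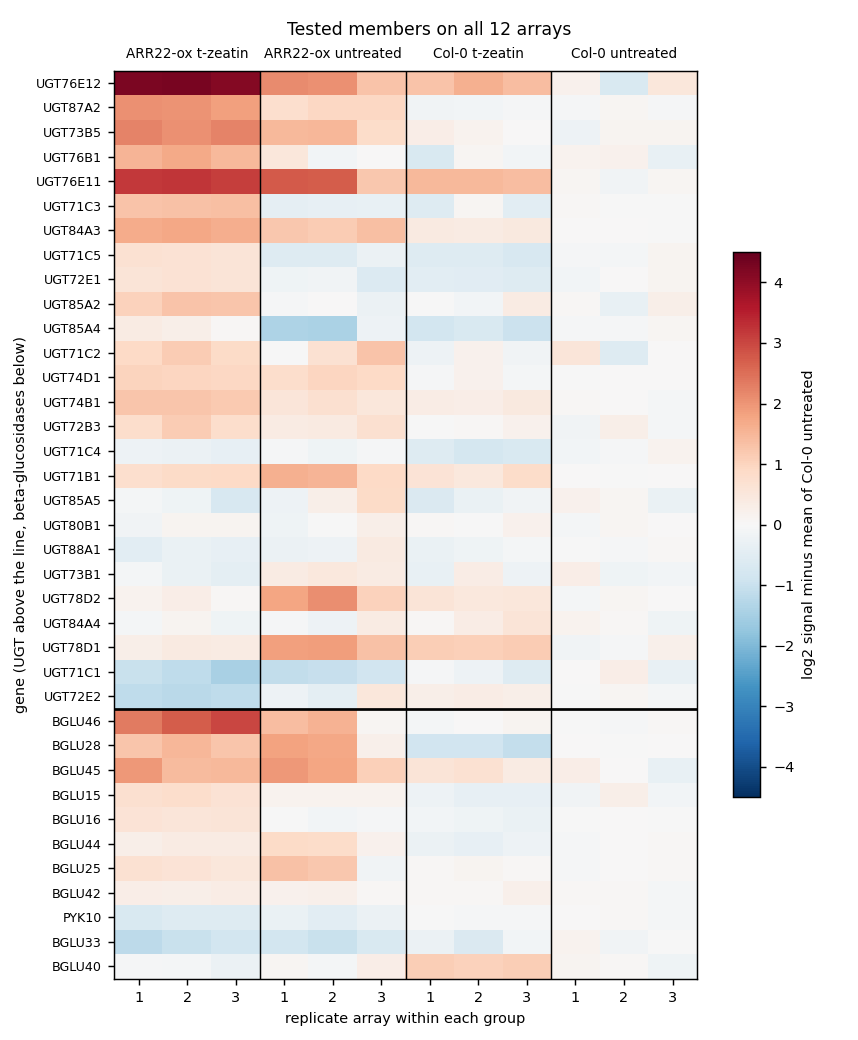
Signals of the 37 tested genes on all 12 arrays, as log2 signal minus the mean log2 signal of the 3 Col-0 untreated arrays, with red higher and blue lower. Rows are genes, ordered within each family by the genotype difference after t-zeatin, and columns are arrays grouped by genotype and treatment. UGT76E12 and UGT76E11 form the darkest red rows in ARR22-ox t-zeatin, the rows of UGT78D1 and UGT78D2 are redder in ARR22-ox untreated than in the other groups, and ARR22-ox untreated array 3 is paler than the other arrays of its group for UGT76E11, BGLU25, BGLU28 and BGLU46.

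In wild-type plants UGT78D1 and BGLU40 rose more than 2-fold after t-zeatin, as did UGT76E11 and UGT76E12 from dim signals. Most beta-glucosidase genes did not pass the test. Of the 26 UGT genes tested, 7 rose and 4 fell at an adjusted p under 0.05, and 3 of these changed at least 2-fold. Over all 13648 probe sets tested, 23.7% rose, 21.1% fell and 9.11% were called with a change of at least 2-fold, so the shares among UGT genes lay near this background. Of the 11 BGLU genes tested, 1 rose and 2 fell. The median log2 change was 0.04 for UGT and -0.05 for BGLU genes, beside 0.01 for all probe sets. Changes are log2 differences of group means from a linear model over all 12 arrays, with its standard error.

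Among UGT genes bright enough to be named, UGT76E11 and UGT78D1 rose most. UGT76E11 (AT3G46670), whose enzyme glucosylates flavonoids, had signals of 47.9, 48.9 and 45.5 in Col-0 t-zeatin, against 18.5, 15.9 and 18.5 in Col-0 untreated arrays. The groups were far apart and tight within each, a 2.70-fold rise (log2 change 1.43 ± 0.31, SE; adjusted p = 0.00247), or 0.92 on the log2 scale with 16 added to every signal. UGT78D1 (AT1G30530), the flavonol 3-O-rhamnosyltransferase, had 100.3, 98.2 and 104 in Col-0 t-zeatin and 42.0, 45.1 and 54.7 in Col-0 untreated arrays. All treated arrays again lay above all untreated ones, a 2.15-fold rise (1.103 ± 0.15, SE; adjusted p = 6.85e-05). UGT71B1 rose by 0.64 ± 0.16, and UGT84A3, which makes glucose esters of hydroxycinnamic acids, by 0.41 ± 0.09. UGT78D2 (AT5G17050), the flavonoid 3-O-glucosyltransferase, rose 1.44-fold (0.52 ± 0.20, SE) with an adjusted p of 0.0499. That call was lost in 15 of 20 alternatives, among them leaving out any Col-0 array, any ARR22-ox t-zeatin array or ARR22-ox untreated array 1, with an adjusted p of up to 0.129. The dim UGT76E12 (AT3G46660), at 21.8 ± 2.35 in Col-0 t-zeatin and 8.59 ± 3.25 in Col-0 untreated arrays, rose by 1.42, and by 0.63 when 16 was added to every signal. UGT74B1, the glucosyltransferase of glucosinolate synthesis, rose 1.28-fold (0.35 ± 0.08, SE).

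The falls in Col-0 were in UGT85A4, UGT71C4, UGT71C5 and UGT72E1. UGT85A4 (AT1G78270) had 45.6, 50.6 and 41.5 in Col-0 t-zeatin, against 78.4, 77.4 and 86.8 in Col-0 untreated arrays. The treated arrays were all lower, by 1.77-fold (log2 change -0.82 ± 0.25, SE; adjusted p = 0.0178), although the call was lost without Col-0 untreated array 3 or Col-0 t-zeatin array 3 (adjusted p of up to 0.063). UGT71C4 (AT1G07250) had 118, 103 and 109 in Col-0 t-zeatin and 163, 171 and 198 in Col-0 untreated arrays, without overlap, a fall of 1.61-fold (-0.69 ± 0.10, SE; adjusted p = 0.000116). UGT71C5, which makes the glucose ester of abscisate, fell by 0.63 on the log2 scale (adjusted p = 0.00034). UGT72E1, which glucosylates coniferyl and sinapyl aldehyde, fell by 0.53 (adjusted p = 0.00304).

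Among beta-glucosidases the one rise in Col-0 was BGLU40 (AT1G26560), with 258, 242 and 259 in Col-0 t-zeatin and 131, 125 and 103 in Col-0 untreated arrays. All treated arrays exceeded all untreated ones, a 2.12-fold rise (1.09 ± 0.12, SE; adjusted p = 1.57e-05). BGLU15 (AT2G44450), known for breaking down flavonol bisglycosides, had 71.0, 64.6 and 64.0 in Col-0 t-zeatin, against 74.8, 99.7 and 75.8 in Col-0 untreated arrays. The groups did not overlap, and the fall was 0.31 ± 0.11 on the log2 scale (SE, adjusted p = 0.0396). It was 0.18 without Col-0 untreated array 2, the highest array (adjusted p = 0.177), and the call was also lost without Col-0 t-zeatin array 2 or 3, or without any ARR22-ox t-zeatin array. The dim BGLU28, a beta-glucosidase known from sulfur deficiency, fell by 0.94 ± 0.31 (adjusted p = 0.0271), a call lost without any 1 of the 6 Col-0 arrays or with 16 added to the signals. PYK10 did not pass the test in Col-0 (-0.05 ± 0.07, SE). Called BGLU genes numbered 1 without Col-0 untreated array 2 or without Col-0 t-zeatin array 2 or 3, and 7 (2 higher, 5 lower) without ARR22-ox untreated array 3, which enters this comparison only through the shared estimate of the spread. BGLU45 (0.55) then passed as higher and BGLU16 (-0.20), BGLU33 (-0.35) and BGLU44 (-0.29) as lower, and UGT counts became 8 higher and 5 lower, with UGT72E2 (0.29) and UGT88A1 (-0.20) added.

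**Figure D2:**
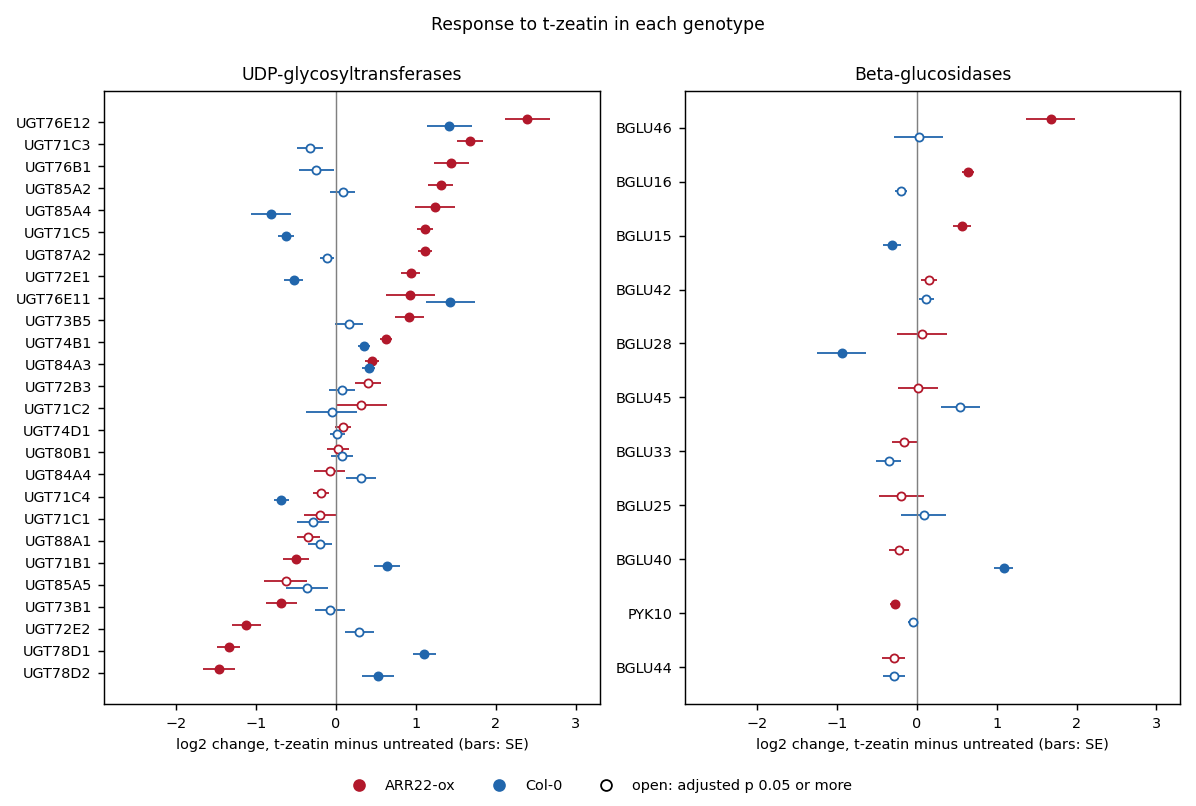
Log2 change after t-zeatin in ARR22-ox (red) and in Col-0 (blue) for the 26 tested UGT genes on the left and the 11 tested beta-glucosidase genes on the right, with bars for the SE and open points for an adjusted p of 0.05 or more. Genes are ordered by their change in ARR22-ox. UGT78D1 and UGT78D2 lie left of 0 in ARR22-ox and right of 0 in Col-0, while UGT71C5, UGT72E1, UGT85A4 and BGLU15 lie the other way round.

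In ARR22-ox plants UGT76E12, UGT71C3 and BGLU46 rose more than 3-fold after t-zeatin in the main fit. The rises of UGT71C3 and BGLU46 were smaller under alternatives given below. UGT78D1 and UGT78D2, both of flavonoid glycosylation, fell more than 2-fold. Of the 26 UGT genes, 12 rose and 5 fell, and 10 changed at least 2-fold; over all probe sets the shares were 25.2% higher, 25.1% lower and 11.4% called at 2-fold or more. Of the 11 BGLU genes, 3 rose and 1 fell. The median log2 change was 0.36 for UGT and 0.02 for BGLU genes, beside -0.0005 for all probe sets. Without ARR22-ox untreated array 3, 13 UGT genes rose and 5 fell, and 3 BGLU genes rose and 4 fell.

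UGT76E12 led the rises, with 153, 157 and 143 in ARR22-ox t-zeatin, against 35.8, 33.8 and 19.6 in ARR22-ox untreated arrays. Every treated array stood well above every untreated one, a 5.25-fold rise (log2 change 2.39 ± 0.28, SE; adjusted p = 2.44e-05). UGT71C3 (AT1G07260), which glucosylates methyl salicylate, had 70.0, 71.3 and 72.3 in ARR22-ox t-zeatin and 21.6, 22.2 and 22.8 in ARR22-ox untreated arrays. The spread within each group was small beside the 3.20-fold rise (1.68 ± 0.16, SE; adjusted p = 4.02e-06). With 16 added to every signal the log2 change of UGT71C3 was 1.19. Its ARR22-ox untreated signals all lay below 24.3, the lowest kept mean, so the size of its rise is uncertain. UGT76B1, which glucosylates isoleucic acid and salicylate, rose by 1.44 ± 0.22, UGT85A2 by 1.31 ± 0.16 and UGT85A4 by 1.24 ± 0.25. UGT76E11 rose 1.91-fold (0.93 ± 0.31, SE; adjusted p = 0.0243), but by only 0.42 without ARR22-ox untreated array 3, and the call was lost without any 1 of the ARR22-ox t-zeatin arrays. The other rises were in UGT71C5 (1.11), UGT87A2 (1.11), UGT72E1 (0.93), UGT73B5 (0.92), UGT74B1 (0.63) and UGT84A3 (0.45), given as log2 changes.

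UGT78D2, UGT78D1 and UGT72E2 led the falls. UGT78D2 had 86.1, 93.2 and 80.2 in ARR22-ox t-zeatin, against 262, 329 and 157 in ARR22-ox untreated arrays. Even the lowest untreated array, the one that stands apart, was above all treated arrays, and the fall was 2.76-fold (log2 change -1.47 ± 0.20, SE; adjusted p = 7.17e-05). UGT78D1 had 57.0, 61.7 and 59.98 in ARR22-ox t-zeatin and 168, 174 and 118 in ARR22-ox untreated arrays, again without overlap, a 2.54-fold fall (-1.34 ± 0.15, SE; adjusted p = 1.2e-05). UGT72E2 (AT5G66690), the glucosyltransferase of monolignols, fell by 1.12 ± 0.18, and UGT73B1, which can glucosylate abscisate in vitro, by 0.68 ± 0.19. UGT71B1 fell by 0.50, with overlapping groups; the call was lost without ARR22-ox untreated array 1 or 2 or ARR22-ox t-zeatin array 1 or 2, with an adjusted p of up to 0.0917.

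BGLU46 (AT1G61820), a glucosidase of monolignol glucosides, had 157, 203 and 248 in ARR22-ox t-zeatin, against 81.6, 91.4 and 32.5 in ARR22-ox untreated arrays. The groups were apart, and the rise was 3.20-fold (log2 change 1.68 ± 0.31, SE; adjusted p = 0.000661). Without ARR22-ox untreated array 3, the lowest of its group, the log2 change was 1.21. BGLU16 (AT3G60130) had 391, 371 and 388 in ARR22-ox t-zeatin and 256, 235 and 248 in ARR22-ox untreated arrays, tight in both groups, a 1.56-fold rise (0.64 ± 0.08, SE; adjusted p = 2.17e-05). BGLU15 rose by 0.56 ± 0.11. PYK10 (AT3G09260), the main beta-glucosidase of ER bodies, had 1327, 1425 and 1413 in ARR22-ox t-zeatin, against 1711, 1548 and 1774 in ARR22-ox untreated arrays. Its treated arrays were all lower, by 1.21-fold (-0.27 ± 0.07, SE; adjusted p = 0.00429), and with quantile normalization the change was -0.12 with an adjusted p of 0.118. Without ARR22-ox untreated array 3, BGLU25, BGLU28 and BGLU44 also passed the test as falls, by 0.67, 0.45 and 0.51.

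**Figure D3:**
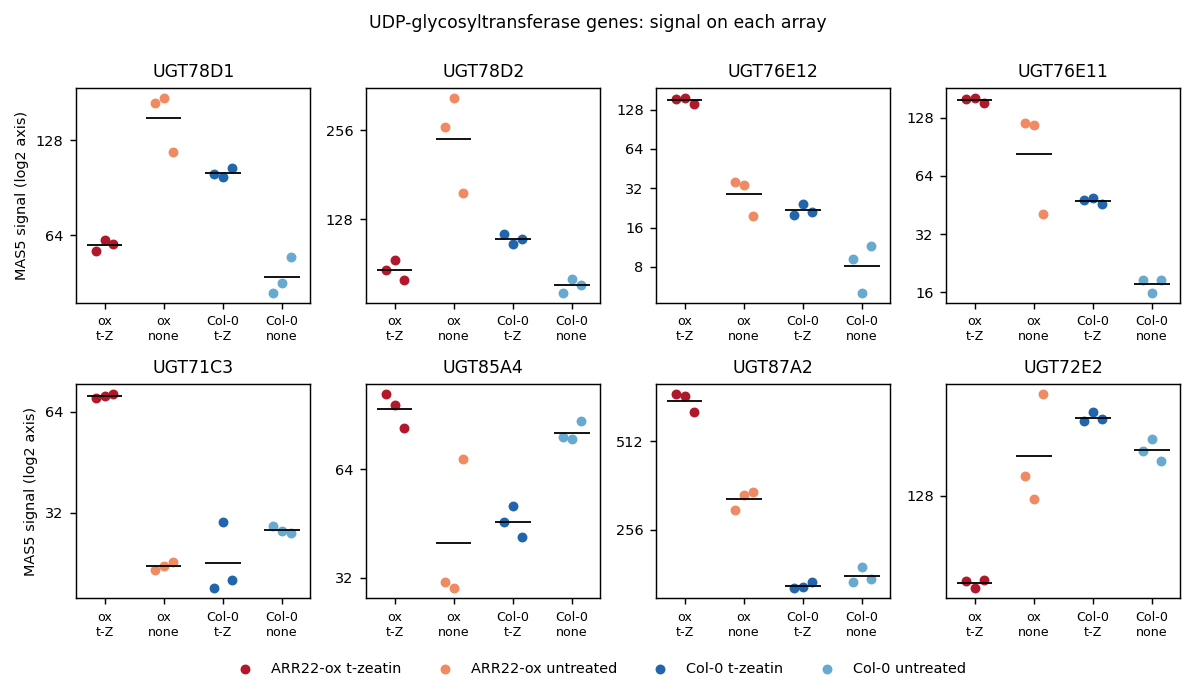
Signal of 8 UGT genes on each array, 1 point per array, with a log2 vertical axis that differs between panels, groups from left to right ARR22-ox t-zeatin, ARR22-ox untreated, Col-0 t-zeatin and Col-0 untreated, and a bar at the group's mean on the log scale. UGT78D1 and UGT78D2 are highest in ARR22-ox untreated, and UGT76E12, UGT76E11, UGT71C3 and UGT87A2 in ARR22-ox t-zeatin.

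The difference between the responses passed the test in 17 of the 37 members (45.9%), beside 45.6% of all probe sets. It was tested directly, as the change in ARR22-ox minus the change in Col-0. Of 26 UGT genes, 9 responded more positively in ARR22-ox and 4 more negatively, 11 of them by at least 2-fold; over all probe sets the shares were 21.1% higher, 24.5% lower and 19.4% called at 2-fold or more. Of 11 BGLU genes, 3 were higher and 1 was lower. The median difference was 0.18 for UGT and 0.03 for BGLU genes, beside -0.05 for all probe sets. Without ARR22-ox untreated array 3, the counts were 10 higher and 5 lower for UGT and 4 and 4 for BGLU genes.

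UGT85A4 differed most upward. It had 104, 96.4 and 83.3 in ARR22-ox t-zeatin and 31.1, 29.8 and 68.3 in ARR22-ox untreated arrays, while its Col-0 values, given above, went down. The difference of the responses was 2.06 ± 0.35 on the log2 scale (SE, adjusted p = 0.00047). UGT71C3 had 19.1, 30.1 and 20.3 in Col-0 t-zeatin, against 29.3, 28.3 and 27.9 in Col-0 untreated arrays, which overlap. With its rise in ARR22-ox the difference was 2.01 ± 0.23 (SE, adjusted p = 1.76e-05), or 1.38 with 16 added to every signal. UGT71C5 differed by 1.74 ± 0.14. The largest downward differences were in UGT78D1 (-2.45 ± 0.21, SE; adjusted p = 1.78e-06), UGT78D2 (-1.99 ± 0.28, adjusted p = 0.000113) and UGT72E2 (-1.41 ± 0.25, adjusted p = 0.000673). In all 6 Col-0 arrays UGT72E2 lay between 158 and 213, and its t-zeatin change there of 0.29 ± 0.18 did not pass the test.

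BGLU46 differed by 1.66 ± 0.43 (SE, adjusted p = 0.0076), or by 1.19 without ARR22-ox untreated array 3. In Col-0 it had 29.2, 31.2 and 33.7 after t-zeatin, against 30.8, 29.8 and 32.0 untreated, with overlapping groups. BGLU15 differed by 0.88 ± 0.16 and BGLU16 by 0.84 ± 0.11. BGLU40 had the one lower response, -1.31 ± 0.17 (SE, adjusted p = 5.46e-05), since in ARR22-ox it had 115, 112 and 98.6 after t-zeatin, against 125, 111 and 145 untreated, and did not pass the test there (-0.22 ± 0.12). Without ARR22-ox untreated array 3, UGT76E11 (-1.01), BGLU25 (-0.75), BGLU44 (-0.22) and BGLU45 (-0.80) also passed as lower, and UGT74B1 (0.24) and BGLU28 (0.49) as higher.

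Taking both responses, 4 of 26 UGT genes were higher after t-zeatin in each genotype, namely UGT74B1, UGT76E11, UGT76E12 and UGT84A3, and 0 were lower in each; over all probe sets 7.17% were higher in both and 7.17% lower in both. UGT71B1, UGT78D1 and UGT78D2 were lower in ARR22-ox and higher in Col-0, a pattern of 5.09% of all probe sets. UGT71C5, UGT72E1 and UGT85A4 were higher in ARR22-ox and lower in Col-0, a pattern of 6.26%. With so few members these counts are a description only. Some of the calls were lost under alternatives, as given above, namely UGT78D2 and UGT85A4 in Col-0 and UGT71B1 and UGT76E11 in ARR22-ox. Of the 11 beta-glucosidase genes, 1, BGLU15, was called in both genotypes, in opposite directions, and the pattern of this family depends on ARR22-ox untreated array 3. Without that array, BGLU28 and BGLU44 were lower in both genotypes, BGLU15 and BGLU16 were higher in ARR22-ox and lower in Col-0, and BGLU42 was the 1 gene called in neither. Among UGT genes, UGT72E2 was then lower in ARR22-ox (-0.85) and higher in Col-0 (0.29), and the other genes of both patterns were the same. On all arrays, 8 UGT genes, among them UGT74D1, UGT80B1 and UGT84A4, and 5 BGLU genes passed in neither response; without that array 6 UGT genes did not. The responses share no arrays but do share the estimate of the spread.

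**Figure D4:**
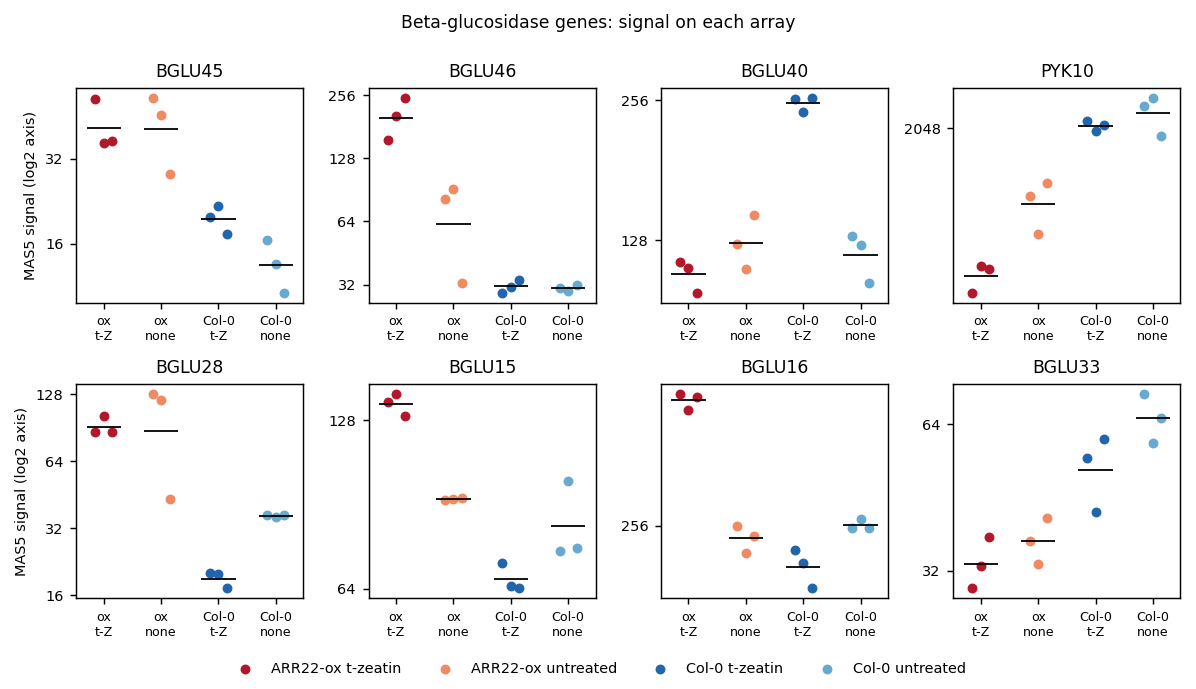
Signal of 8 beta-glucosidase genes on each array, 1 point per array, with a log2 vertical axis that differs between panels, groups from left to right ARR22-ox t-zeatin, ARR22-ox untreated, Col-0 t-zeatin and Col-0 untreated, and a bar at the group's mean on the log scale. BGLU46 is highest in ARR22-ox t-zeatin, BGLU40 in Col-0 t-zeatin, and PYK10 and BGLU33 are lower on every ARR22-ox array than on every Col-0 array.

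Without treatment, ARR22-ox plants had higher signals than Col-0 plants for UGT76E11, UGT78D1 and UGT78D2 and for the monolignol glucosidases BGLU45 and BGLU46, and lower signals for BGLU33 and PYK10. Of the 26 UGT genes, 11 were higher and 4 lower in ARR22-ox, 9 of them by at least 2-fold; over all probe sets the shares were 24.5% higher, 24.0% lower and 11.5% called at 2-fold or more. Of the 11 BGLU genes, 5 were higher and 2 lower. The median difference was 0.35 for UGT and 0.16 for BGLU genes, beside 0.01 for all probe sets. Without ARR22-ox untreated array 3, 10 UGT genes were higher and 6 lower, and the BGLU counts stayed at 5 and 2. This comparison shares its arrays with both responses.

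UGT76E11 had 119.8, 118 and 40.8 in ARR22-ox untreated arrays, against 18.5, 15.9 and 18.5 in Col-0 untreated arrays. All 3 ARR22-ox arrays were higher, the third by less, and the difference was 4.72-fold (log2 2.24 ± 0.31, SE, adjusted p = 8.06e-05). With 16 added to every signal the log2 difference was 1.59. UGT78D1 was 3.22-fold higher (1.69 ± 0.15, SE; adjusted p = 1.64e-06), with the values given above and no overlap. UGT78D2 differed by 1.64 ± 0.20, UGT71B1 by 1.35 ± 0.16 and UGT73B5, a gene of pathogen and redox responses, by 1.26 ± 0.18. With 16 added to every signal the UGT73B5 difference was 0.86. Its Col-0 untreated mean, 22.5, lay below 24.3, the lowest kept mean. UGT84A3 (1.23), UGT74D1 (0.88), whose enzyme glucosylates auxins, UGT87A2 (0.87), UGT74B1 (0.60) and UGT72B3 (0.50) were also higher. The call of UGT72B3 was lost without ARR22-ox untreated array 3 (adjusted p = 0.0551) and without Col-0 untreated array 1 or 3, with an adjusted p of up to 0.0848. UGT76E12, at 29.7 ± 8.82 in ARR22-ox untreated and 8.59 ± 3.25 in Col-0 untreated arrays (SD, n = 3 each), was higher by 1.82, or 0.88 when 16 was added to every signal.

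Lower in untreated ARR22-ox were UGT85A4, UGT71C1, UGT71C5 and UGT72E1. UGT85A4 had 31.1, 29.8 and 68.3 in ARR22-ox untreated arrays and 78.4, 77.4 and 86.8 in Col-0 untreated arrays, with the third ARR22-ox array closest to Col-0, and was 2.03-fold lower (log2 difference -1.02 ± 0.25, SE; adjusted p = 0.00484). UGT71C1 (AT2G29750), which glucosylates flavonoids and hydroxycinnamates in vitro, had 19.3, 19.9 and 22.5 in ARR22-ox untreated arrays, against 42.0, 50.2 and 32.9 in Col-0 untreated arrays. The groups were apart by 2.00-fold (-1.002 ± 0.20, SE; adjusted p = 0.00117), and with 16 added to every signal the difference was -0.65. UGT71C5 was lower by 0.47 (adjusted p = 0.00217). UGT72E1 was lower by 0.33 (adjusted p = 0.0366), or by 0.18 without ARR22-ox untreated array 3. That call was lost in 8 of 20 alternatives, among them without Col-0 untreated array 2 or 3, Col-0 t-zeatin array 2 or any ARR22-ox t-zeatin array, with an adjusted p of up to 0.141.

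BGLU45 (AT1G61810), a monolignol glucosidase and the neighbour of BGLU46 on chromosome 1, had 52.4, 45.6 and 28.2 in ARR22-ox untreated arrays, against 16.5, 13.6 and 10.7 in Col-0 untreated arrays. The groups did not overlap, and the log2 difference was 1.60 ± 0.25 (SE, adjusted p = 0.000186), or 0.95 with 16 added to every signal. All Col-0 signals of BGLU45 lay below 24.3, the lowest kept mean, so the gene passed the filter through its ARR22-ox arrays. The size of its difference is therefore uncertain. BGLU28 (AT2G44460) had 129, 121 and 43.1 in ARR22-ox untreated arrays and 36.7, 35.8 and 36.8 in Col-0 untreated arrays. The third ARR22-ox array lay just above Col-0, the others far above it, and the difference was 2.40-fold (1.26 ± 0.31, SE; adjusted p = 0.00507). BGLU46 was 2.02-fold higher (1.01 ± 0.31, SE; adjusted p = 0.0158), by 1.48 without ARR22-ox untreated array 3 and no longer called without array 1 or 2 of that group (adjusted p of up to 0.0672). BGLU44 was higher by 0.62 ± 0.14. BGLU25 was higher by 0.80 with overlapping groups, and by 1.27 without ARR22-ox untreated array 3. Leaving out any other untreated array, of ARR22-ox or Col-0, ended the BGLU25 call, with an adjusted p of up to 0.136.

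BGLU33 (AT2G32860), a glucosidase that releases abscisate from its glucose ester, had 36.8, 33.1 and 41.2 in ARR22-ox untreated arrays, against 74.0, 58.7 and 65.9 in Col-0 untreated arrays. Every ARR22-ox array was lower, by 1.79-fold (log2 difference -0.84 ± 0.16, SE; adjusted p = 0.000849). PYK10 had 1711, 1548 and 1774 in ARR22-ox untreated arrays and 2169.6, 2217 and 2008 in Col-0 untreated arrays, also without overlap, and was 1.27-fold lower (-0.35 ± 0.07, SE; adjusted p = 0.000856).

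After t-zeatin the genotypes differed in most of the tested members. Of the 26 UGT genes, 16 were higher and 3 lower in ARR22-ox, 13 of them by at least 2-fold; over all probe sets the shares were 23.1% higher, 28.0% lower and 13.5% called at 2-fold or more. Of the 11 BGLU genes, 6 were higher and 3 lower. The median difference was 0.91 for UGT and 0.62 for BGLU genes, beside -0.05 for all probe sets. Both families had a larger share of members higher in ARR22-ox than all probe sets did. This count was not tested against the rest, and the members were chosen with earlier results of these data known. The filter on the mean of all arrays also kept genes dim in Col-0, such as UGT76E12 and BGLU45, through their ARR22-ox signals. The shares are therefore a description only.

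**Figure D5:**
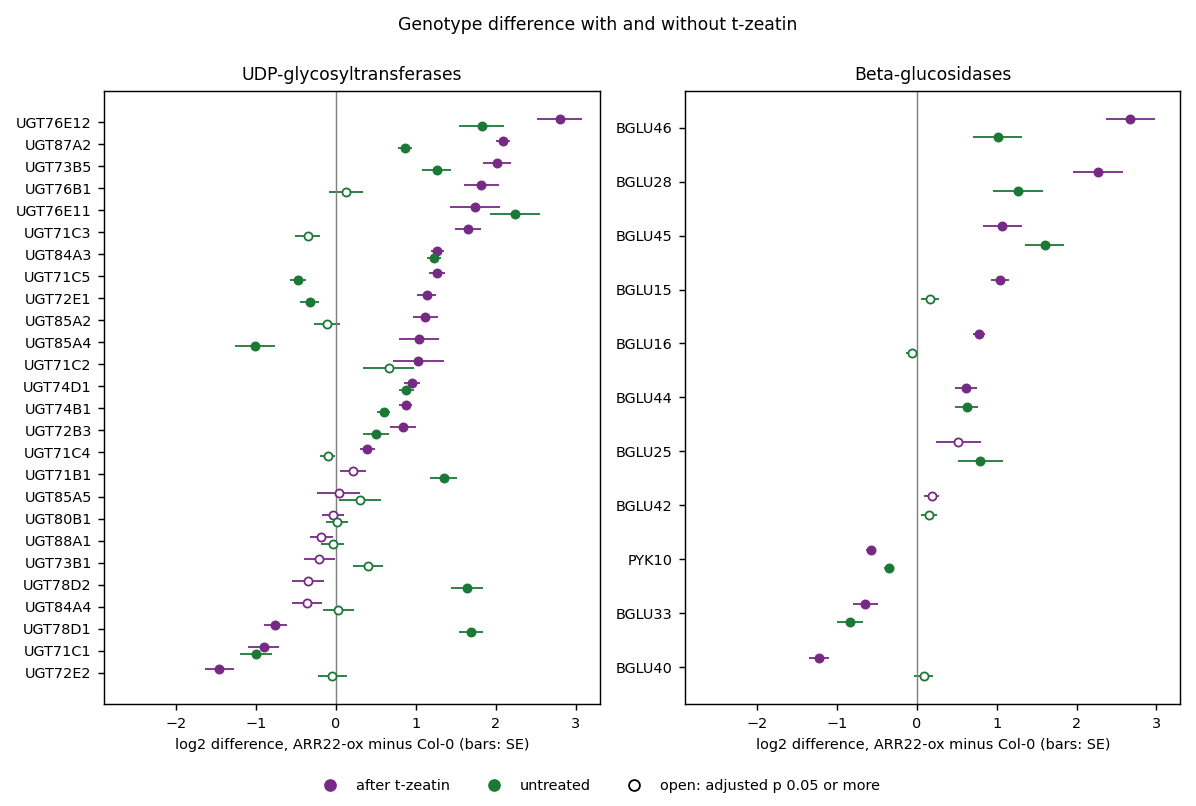
Log2 difference between genotypes, ARR22-ox minus Col-0, after t-zeatin (purple) and untreated (green), for the 26 tested UGT genes on the left and the 11 tested beta-glucosidase genes on the right, with bars for the SE and open points for an adjusted p of 0.05 or more. Genes are ordered by the difference after t-zeatin. UGT78D1 is right of 0 untreated and left of 0 after t-zeatin, and UGT71C5, UGT72E1 and UGT85A4 the other way round.

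UGT76E12 had 153, 157 and 143 in ARR22-ox t-zeatin, against 19.8, 24.4 and 21.1 in Col-0 t-zeatin arrays. The gap was 6.96-fold (log2 2.80 ± 0.28, SE, adjusted p = 5.48e-06), or 2.15 on the log2 scale with 16 added to every signal. Its means of 21.8 in Col-0 t-zeatin and 8.59 in Col-0 untreated arrays lay below 24.3, the lowest kept mean. The gene thus passed the filter through its ARR22-ox arrays. UGT87A2 (AT2G30140), a gene known from flowering time and abiotic stress, had 742, 730.2 and 642 in ARR22-ox t-zeatin and 162, 163 and 171 in Col-0 t-zeatin arrays. The groups were far apart, by 4.26-fold (2.09 ± 0.09, SE; adjusted p = 4.37e-09). UGT73B5 was higher by 2.01 ± 0.18, or by 1.51 with 16 added to every signal, beside a Col-0 t-zeatin mean of 25.1. UGT72E2 had 75.8, 72.5 and 76.5 in ARR22-ox t-zeatin, against 202, 213 and 204 in Col-0 t-zeatin arrays, a 2.76-fold lower level with tight groups (-1.46 ± 0.18, SE; adjusted p = 2.59e-05). UGT78D1 was 1.70-fold lower (-0.76 ± 0.15, SE; adjusted p = 0.000875), from the values of both groups given above. The dim UGT71C1 was lower by 0.91, or by 0.55 with 16 added to every signal.

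BGLU46 had 157, 203 and 248 in ARR22-ox t-zeatin, against 29.2, 31.2 and 33.7 in Col-0 t-zeatin arrays, and was 6.37-fold higher (log2 2.67 ± 0.31, SE; adjusted p = 1.44e-05). BGLU28 had 86.9, 102 and 86.5 in ARR22-ox t-zeatin and 20.1, 19.8 and 17.1 in Col-0 t-zeatin arrays. There was no overlap and a 4.83-fold difference (2.27 ± 0.31, SE, adjusted p = 6.53e-05), or 1.62 on the log2 scale with 16 added to every signal. BGLU45 was higher by 1.07 ± 0.25, or 0.69 with 16 added to every signal, a size that is uncertain because its Col-0 signals all lay below 24.3. BGLU40 had 115, 112 and 98.6 in ARR22-ox t-zeatin, against 258, 242 and 259 in Col-0 t-zeatin arrays, a 2.34-fold lower level (-1.22 ± 0.12, SE; adjusted p = 4.02e-06). BGLU33 had 29.5, 32.7 and 37.6 in ARR22-ox t-zeatin and 54.5, 42.2 and 59.8 in Col-0 t-zeatin arrays, lower by 0.64 on the log2 scale (adjusted p = 0.00451). PYK10 was lower by 0.57 ± 0.07. Without ARR22-ox untreated array 3, which touches this comparison through the estimate of the spread alone, 16 UGT genes were higher and 5 lower, and 7 BGLU genes were higher and 3 lower; UGT78D2 (-0.35) and UGT88A1 (-0.18) were added as lower and BGLU25 (0.52) as higher.

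Grouped by acceptor, the flavonoid and anthocyanin list had 3 tested UGT genes, UGT78D1, UGT78D2 and UGT71C1. After t-zeatin UGT78D1 and UGT78D2 fell in ARR22-ox and rose in Col-0. That is 2 of 3 genes, where 25.1% of all probe sets fell in ARR22-ox and 23.7% rose in Col-0. The UGT78D2 rise in Col-0 had an adjusted p of 0.0499 (limma), and its call was lost in 15 of 20 alternatives. Of the 19 listed genes of flavonoid synthesis, 2 were found by symbol. DFR, the dihydroflavonol reductase of anthocyanin synthesis, averaged 81.1 ± 3.39 in ARR22-ox t-zeatin and 859 ± 547 in ARR22-ox untreated arrays, against 57.4 ± 4.85 in Col-0 t-zeatin and 133 ± 13.9 in Col-0 untreated arrays (SD, n = 3 each). It fell in both responses, by 3.08 in ARR22-ox and by 1.22 in Col-0 on the log2 scale, and was higher by 2.37 in untreated ARR22-ox. CHI, the chalcone isomerase, passed the test only after t-zeatin, where it was higher in ARR22-ox by 0.97.

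The phenylpropanoid list had UGT72E1, UGT72E2, UGT84A3 and UGT84A4 tested. In ARR22-ox 2 of these 4 rose after t-zeatin and 1 fell, beside 25.2% and 25.1% of all probe sets, and in Col-0 1 rose and 1 fell, beside 23.7% and 21.1%. UGT72E1 and UGT72E2, which act on the aldehydes and the alcohols of the lignin pathway, moved in opposite directions in ARR22-ox. In the BGLU list for monolignol glucosides, BGLU45 and BGLU46 were both higher in ARR22-ox in both states, and BGLU46 rose after t-zeatin in ARR22-ox, while BGLU45 did not pass (0.02). The third gene of that list, BGLU47, was below the filter. It had 12.2, 9.80 and 9.85 in ARR22-ox t-zeatin and 19.7, 9.59 and 20.6 in ARR22-ox untreated, against 31.2, 32.5 and 39.4 in Col-0 t-zeatin and 22.8, 26.9 and 20.6 in Col-0 untreated arrays. After t-zeatin the ARR22-ox arrays lay below the Col-0 arrays. Tested without the filter that difference passed (adjusted p = 0.000453, limma), while the untreated one did not (adjusted p = 0.156). All ARR22-ox signals of BGLU47 lay below 24.3, the lowest kept mean, so no size of the difference is given. Of the 18 listed phenylpropanoid genes 2 were found by symbol. HCT, a hydroxycinnamoyl transferase, rose by 0.29 in Col-0 and did not pass the test in ARR22-ox (0.06). Its difference of responses, -0.24, did not pass (adjusted p = 0.164, limma). ALDH2C4, the aldehyde dehydrogenase REF1 that makes sinapate and ferulate, rose by 0.85 in ARR22-ox and fell by 0.20 in Col-0.

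Hormone conjugation was represented by few tested genes. UGT76B1 and UGT71C3, the 2 tested genes of the salicylate list, both rose in ARR22-ox, where 25.2% of all probe sets rose, and neither passed the test in Col-0 (-0.25 and -0.33). UGT76B1 had 195, 223 and 189 in ARR22-ox t-zeatin and 96.0, 61.9 and 68.4 in ARR22-ox untreated arrays, against 41.8, 71.7 and 62.5 in Col-0 t-zeatin and 75.0, 77.5 and 54.0 in Col-0 untreated arrays. Thus only the ARR22-ox t-zeatin arrays lay above the rest. For abscisate, UGT71C5 (255, 250.3 and 241 in ARR22-ox t-zeatin, against 108, 107 and 133 in ARR22-ox untreated arrays) rose in ARR22-ox, while UGT73B1 fell there. UGT71B6 and UGT71B8 of that list were below the filter. UGT71B6 had 23.6, 27.7 and 20.4 in ARR22-ox t-zeatin and 5.26, 8.25 and 10.1 in ARR22-ox untreated arrays. In Col-0 it had 1.29, 1.44 and 0.842 after t-zeatin and 21.6, 5.48 and 18.0 untreated, too dim for a size of change. UGT74D1, the 1 tested auxin gene, was higher in ARR22-ox in both states and passed the test in neither response (0.09 in ARR22-ox and 0.01 in Col-0). The 2 tested UGT76E genes, listed under jasmonate because a related enzyme glucosylates hydroxyjasmonate, were higher in each of the 4 comparisons of groups, while the difference of responses did not pass for either (-0.50 for UGT76E11 and 0.98 for UGT76E12). None of the 13 listed abscisate genes was found by symbol, and the 1 of 8 salicylate genes found was below the filter.

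In glucosinolate metabolism UGT74B1 (444, 439 and 418 in ARR22-ox t-zeatin and 274, 302 and 268 in ARR22-ox untreated, against 233, 229 and 249 in Col-0 t-zeatin and 192, 189.7 and 176 in Col-0 untreated arrays) showed 4 levels that did not overlap. Of the 34 other listed glucosinolate genes 1 was tested: BCAT4, an aminotransferase of methionine chain elongation, fell by 1.26 in ARR22-ox and by 0.35 in Col-0. Genes of sulfur deficiency, the condition BGLU28 is known from, could not be set beside it, because none of the 12 listed was found by symbol.

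PYK10 belongs to the ER body, an endoplasmic reticulum compartment that stores beta-glucosidase. Of the 13 other listed ER body genes 6 were tested. In ARR22-ox 1 rose and 4 fell after t-zeatin, beside 25.2% and 25.1% of all probe sets, and in Col-0 3 rose and 1 fell, beside 23.7% and 21.1%. For the difference of responses 4 of the 6 were lower and 0 higher, beside 24.5% and 21.1%. NAI2, a protein needed to form ER bodies, averaged 330 ± 11.3 in ARR22-ox t-zeatin and 391 ± 28.9 in ARR22-ox untreated, against 559 ± 11.5 in Col-0 t-zeatin and 311 ± 12.5 in Col-0 untreated arrays. It rose by 0.85 in Col-0 and fell by 0.24 in ARR22-ox. NAI1, the transcription factor that controls PYK10 and NAI2, rose by 1.67 in Col-0, while its change of 0.25 in ARR22-ox did not pass. The 4 jacalin-related lectins of the list did not move alike. JAL33 and JAL22 fell in ARR22-ox by 1.34 and 1.35, while JAL34 rose by 0.78 in ARR22-ox and by 0.96 in Col-0. JAL23 fell by 0.45 in ARR22-ox and by 0.28 in Col-0. It was higher in ARR22-ox than in Col-0 by 1.70 untreated and by 1.52 after t-zeatin, while PYK10 was lower in both states. PYK10 itself passed neither in Col-0 (-0.05) nor for the difference of responses (-0.22, adjusted p = 0.0654).

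Scopolin, a coumarin glucoside, is a known substrate of PYK10, and BGLU42 is known from the release of coumarins by roots. BGLU42 passed no test, with log2 values between 0.03 and 0.19 in the 5 comparisons. Of the 5 listed coumarin genes 2 were tested. F6'H1 (AT3G13610), the hydroxylase that starts scopoletin synthesis, rose by 0.68 in ARR22-ox and did not pass in Col-0 (0.21). Its difference of responses, 0.47, did not pass (adjusted p = 0.186, limma). UGT80B1, a sterol glucosyltransferase, also passed no test, with values between -0.05 and 0.07.

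Many members lie next to each other in the genome. By gene order in the RefSeq annotation of assembly TAIR10.1, 40 of the 66 members fell into 17 groups with no more than 10 genes from one member to the next. Neighbours did not always move alike. UGT71C5, UGT71C4 and UGT71C3, which follow each other directly, changed by 1.11, -0.19 and 1.68 in ARR22-ox, and UGT71C4 did not pass the test there. UGT71C1 and UGT71C2 differed between genotypes after t-zeatin by -0.91 and 1.03, in opposite directions. UGT71C2 was 0.66 with 16 added to every signal, and its call was lost without Col-0 t-zeatin array 1 or 3 or ARR22-ox t-zeatin array 2 (adjusted p of up to 0.0586). UGT85A2 rose by 1.31 in ARR22-ox, while its neighbour UGT85A5 stood at -0.63 (adjusted p = 0.0654). BGLU45 and BGLU46 were both higher in ARR22-ox in both states, as were UGT76E11 and UGT76E12.

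Of the members below the filter, 13 of 19 UGT and 8 of 10 BGLU genes stayed under 24.3, the lowest kept mean, on every array. Those dim signals carry no order and no changes were read from them. UGT73B4, the neighbour of UGT73B5, and BGLU27, the neighbour of BGLU16, reached the median signal of all probe sets, 39.5, on at least 1 array. UGT73B4 ranged from 0.806 to 50.9 and BGLU27 from 7.20 to 48.8 over the 12 arrays.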

How the data were processed

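The deposited values are array signal intensity on a linear scale, 1 value per probe set and array, which the authors made with MAS5, per the submitters' processing notes (no version is given there). Background correction and detection calls are not given in the sources used here. From the values, every array had been scaled to a mean of 100 after trimming 2% at each end. The authors' genome build is not given in the sources used here, so no coordinates are printed.

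Signals were converted to log2. Of 22810 probe sets, 64 controls were left out, and a filter at the 40th percentile of mean log2 signal left 13648. A model with 4 group means was fitted to the 12 arrays (limma 3.58.1, R 4.3.3; empirical Bayes moderation with a variance trend). Tests were two-sided, with Benjamini-Hochberg adjustment over all 13648 and a threshold of 0.05. With 3 arrays per group, the number of arrays limits the precision. The procedure was tested on simulated data. Probe sets were named from the platform annotation, and all 66 members' symbols were found in RefSeq. Replicate numbers follow sample order and pair nothing.

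The genes named are, in each family, the 5 largest rises and falls (3 for the difference of responses and for the genotypes after t-zeatin) among called members without overlap of the groups, whose higher group mean reached 39.5. Overlap was not considered for the difference of responses. Members of the lists are given beside them. Members and lists were chosen with earlier results of these data known. The 20 alternatives changed the normalization, the filter, an offset of 16 before log2, the variance model, the array weights, the arrays fitted, or left out 1 array.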

Additional observations from a re-analysis of the deposited data

Results flagged for a closer look

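The responses to t-zeatin differed between ARR22-ox and Col-0 in 17 tested members, by the test of the difference itself (limma, adjusted p under 0.05). That is 45.9% of the 37 tested members, beside 45.6% of all probe sets tested, so the share of members is near the background. All values are log2 differences, ARR22-ox minus Col-0. Higher responses in ARR22-ox were found for UGT85A4 (2.06), UGT71C3 (2.01), UGT71C5 (1.74), UGT76B1 (1.69), UGT72E1 (1.46), UGT85A2 (1.23), UGT87A2 (1.22), UGT73B5 (0.75) and UGT71C4 (0.50). BGLU46 (1.66), BGLU15 (0.88) and BGLU16 (0.84) were higher as well. Lower responses were found for UGT78D1 (-2.45), UGT78D2 (-1.99), UGT72E2 (-1.41), UGT71B1 (-1.14) and BGLU40 (-1.31). The call of UGT73B5 was lost without Col-0 untreated array 2 or 3, Col-0 t-zeatin array 2 or 3, or ARR22-ox t-zeatin array 1 or 3, with an adjusted p of up to 0.0656.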

How the results depend on the processing

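The 60 named values were recomputed under up to 20 alternatives, 1166 times in all: 1130 kept direction and call, 36 lost the call and 0 turned. The planned use of the dimmest probe set of a gene gave no value, as no member had several. No paired analysis was possible because the labels give no replicate numbers. Counts of called members that moved by over 1.5 times were these. Called BGLU genes in the Col-0 response (3) were 5 with arrays set to the same median, 7 with array weights, 6 with only the 6 arrays compared, and 1 to 7 with 1 array left out. In the ARR22-ox response, 17 UGT genes became 11 under the stricter filter, and 4 BGLU genes became 7 with array weights and 4 to 7 with 1 array left out. For the difference of responses, 4 BGLU genes became 7 with array weights and 4 to 8 with 1 array left out. Between untreated genotypes, 15 UGT genes became 23 without the filter and 9 under the stricter one, and 7 BGLU genes became 3 under the stricter one. After t-zeatin, 19 UGT genes became 11 and 9 BGLU genes became 5 under the stricter filter, which tests fewer genes. In these first 3 comparisons the highest BGLU counts with 1 array left out came without ARR22-ox untreated array 3. Under both other scalings the median of all probe sets stayed within 0.1 of 0 on the log2 scale in each comparison.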

Other observations

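The 4 probe sets shared with a second gene cannot be assigned to either, and their values are given as such. The one for UGT73B2 and UGT73B3, genes of redox and pathogen responses, averaged 330 ± 7.62 in ARR22-ox t-zeatin and 367 ± 13.0 in ARR22-ox untreated, against 90.9 ± 6.55 in Col-0 t-zeatin and 129 ± 20.2 in Col-0 untreated arrays (SD, n = 3 each). It was higher in ARR22-ox by 1.52 ± 0.11 untreated (SE, adjusted p = 3.38e-07) and by 1.86 ± 0.11 after t-zeatin (adjusted p = 6.02e-08), and fell by 0.50 in Col-0. The one for BGLU21 and BGLU22, beta-glucosidases close to PYK10, averaged 994 ± 17.1 in ARR22-ox t-zeatin and 573 ± 273 in ARR22-ox untreated, against 611 ± 2.15 in Col-0 t-zeatin and 399 ± 18.1 in Col-0 untreated arrays. It rose by 0.94 ± 0.29 in ARR22-ox (adjusted p = 0.016), while the 0.62 in Col-0 did not pass (adjusted p = 0.101). The Col-0 groups did not overlap, and the difference of responses, 0.33, did not pass (adjusted p = 0.542, limma). The probe set shared by UGT89B1 was higher by 0.48 in untreated ARR22-ox, and the one shared by UGT71D1 fell by 0.73 in Col-0.

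Among the members below the filter, UGT73B4, a close relative of UGT73B5, had 45.1, 50.9 and 38.7 in ARR22-ox t-zeatin and 29.1, 28.5 and 30.0 in ARR22-ox untreated, against 13.9, 11.6 and 10.7 in Col-0 t-zeatin and 1.91, 0.806 and 1.48 in Col-0 untreated arrays. BGLU27 had 48.1, 48.8 and 45.5 in ARR22-ox t-zeatin and 46.0, 44.8 and 14.6 in ARR22-ox untreated, against 10.9, 15.3 and 12.7 in Col-0 t-zeatin and 12.1, 12.2 and 7.20 in Col-0 untreated arrays. All Col-0 signals of both lay below 24.3, the lowest kept mean, so no size of the difference is given.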
